A study of Mus musculus with 4 samples.

Results

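The transcripts described here are those of 10 BCL-2 family genes, Bcl2, Bcl2l1, Mcl1, Bcl2l11, Bbc3, Bmf, Pmaip1, Bid, Bax and Bak1, taken by gene symbol from a table of 15466 genes. All 10 were present. RNA was sequenced from mouse spleen CD8 T cells of C57BL/6 mice, which received IL-15C (IL-15 joined to IL-15Ra, the chain that presents it to T cells) or PBS on a schedule of 4 times a week. The mice given PBS carry the label wild type (WT). After enrichment on anti-CD8 beads, the cells were sorted by flow cytometry into virtual memory cells (CD44 high, CD49d negative) and naive cells (CD44 negative, CD49d negative). This gave 4 groups with 1 poly(A) library each: IL-15C virtual memory, WT virtual memory, IL-15C naive and WT naive. Each title gives 3 mice without saying if their cells were pooled. The age and sex of the mice, the IL-15C dose and the length of treatment are not given in the sources used here.

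The BCL-2 family sets the threshold of mitochondrial apoptosis. Survival proteins (BCL-2 from Bcl2, BCL-XL from Bcl2l1, MCL-1 from Mcl1) bind and hold the death-promoting relatives. BH3-only proteins (BIM from Bcl2l11, PUMA from Bbc3, BMF from Bmf, NOXA from Pmaip1, BID from Bid) respond to cytokine loss, DNA damage, detachment or caspase 8 and either block the survival proteins or activate the effectors BAX and BAK, encoded by Bax and Bak1, which permeabilise the outer mitochondrial membrane. In CD8 T cells, IL-15 is known to sustain virtual memory cells in part through BCL-2, and BIM is the main opponent of BCL-2 in resting T cells. FOXO transcription factors are known activators of Bcl2l11 and Bbc3, and p53 of Bbc3, Pmaip1 and Bax.

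The promoter sequences of Bcl2l11 and Bbc3 are shown because both encode cytokine-withdrawal sensors and because a script found the FOXO core motif GTAAACA, read on both strands, in a window of each. The windows are those of RefSeq on GRCm38.p6, from 250 bases before to 50 after a transcript start. Of the members, 9 matched by gene ID, with 16 windows in all, and Pmaip1 did not. The motif was present in 1 of the 2 Bcl2l11 windows, starting at position −227 from the transcript start, in 1 of the 3 Bbc3 windows, starting at position −167, and in no window of the other 7 genes. Of all 32851 windows of this length, 3.65% held it. The STAT motif TTCNNNGAA was found in none of the 16 member windows and in 8.30% of all windows, and the p53 half-site in 1 window each of Bmf and Bax and in 8.36% of all windows, with both strands read and no overlap between the motifs shown. A match describes letters in a window and is not a measured site. Capitals mark the FOXO motif (the Bbc3 match is on the reverse strand, so its complement is printed). The first sequence lies at chr2:128125788-128126087 and the second at chr7:16310011-16310310, both on the plus strand.
Bcl2l11: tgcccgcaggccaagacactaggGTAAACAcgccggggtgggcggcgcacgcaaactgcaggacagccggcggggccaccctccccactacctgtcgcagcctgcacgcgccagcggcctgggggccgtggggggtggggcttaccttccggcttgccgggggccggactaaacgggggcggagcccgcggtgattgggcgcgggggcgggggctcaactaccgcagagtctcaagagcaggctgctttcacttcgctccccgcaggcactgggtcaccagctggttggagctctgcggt
Bbc3: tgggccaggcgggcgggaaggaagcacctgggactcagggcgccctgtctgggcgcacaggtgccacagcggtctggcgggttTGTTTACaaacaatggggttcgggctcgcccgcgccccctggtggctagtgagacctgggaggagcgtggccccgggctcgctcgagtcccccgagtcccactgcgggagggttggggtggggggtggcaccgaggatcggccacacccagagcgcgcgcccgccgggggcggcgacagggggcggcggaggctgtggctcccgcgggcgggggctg

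The libraries held 43862816 to 48950547 reads assigned to genes, so that 1 read was worth 0.0197 to 0.0233 CPM (the read count relative to the library size, with TMM scaling). The members together took 0.0745% of the reads in IL-15C virtual memory, 0.118% in WT virtual memory, 0.0901% in IL-15C naive and 0.101% in WT naive cells. With 1 library per group no difference has a replicate check, no test was made, and the 95% intervals below cover counting error alone. Counting error was small: the exact Poisson interval of a member's count had a half-width of 1.29% (Mcl1 in WT naive cells) to 14.2% (Pmaip1 in IL-15C naive cells) of its value. The terms counted as higher and counted as lower are used where the whole counting interval of a ratio lay beyond 2-fold. In RNA from sorted populations, a change per cell and a change in which cells were present cannot be told apart. CD8 T cell markers were present in each library. Cd3e was at 528, 539, 526 and 538 CPM in IL-15C virtual memory, WT virtual memory, IL-15C naive and WT naive cells. In the same libraries Cd8a was at 1049.9, 1168, 1603 and 1396 CPM. Cd3g also varied more than Cd3e, at 402, 448, 702 and 528 CPM.

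Among the survival genes, Bcl2 and Mcl1 were lowest in IL-15C virtual memory cells, whereas Bcl2l1 was highest there. Bcl2 (Entrez 12043, chromosome 1, 106538176 to 106714290) stood at 203 CPM in IL-15C virtual memory, 399 CPM in WT virtual memory, 225 CPM in IL-15C naive and 285 CPM in WT naive cells. Both IL-15C libraries lay below both WT libraries, and WT virtual memory cells had the highest level. Exons of Bcl2 overlap D630008O14Rik, an antisense gene that was not analysed here, by 497 bases. The log2 ratio of IL-15C over WT was −0.97 in virtual memory cells (95% counting interval −1.01 to −0.94) and −0.34 in naive cells (−0.38 to −0.30). With library totals in place of TMM the virtual memory ratio was −1.08 and counted as lower, and with DESeq2 size factors it was −0.93 and not counted. Between subsets the Bcl2 ratio had opposite signs in the 2 treatments: virtual memory over naive was −0.15 with IL-15C (−0.19 to −0.11) and 0.49 in WT mice (0.46 to 0.52).

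Mcl1, whose short-lived product is needed throughout T cell life (Entrez 17210, chromosome 3, 95656944 to 95663179), stood at 209 CPM in IL-15C virtual memory, 409.8 CPM in WT virtual memory, 436 CPM in IL-15C naive and 455 CPM in WT naive cells. A single library, IL-15C virtual memory, was set apart, and the other 3 lay within a narrow band. Its log2 ratio there was −0.97 over WT virtual memory (−1.01 to −0.94) and −1.06 over IL-15C naive cells (−1.10 to −1.03). Only the second passed the 2-fold limit with its interval, and both estimates lie close to that limit: with DESeq2 size factors the Mcl1 difference between the IL-15C subsets was −1.01 and was no longer counted, and with library totals the difference from WT virtual memory cells was −1.08 and was counted. In naive cells the log2 ratio of IL-15C over WT was −0.06 (−0.09 to −0.03).

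Bcl2l1 (Entrez 12048, chromosome 2, 152758732 to 152833803) stood at 44.04 CPM in IL-15C virtual memory, 33.9 CPM in WT virtual memory, 18.0 CPM in IL-15C naive and 11.3 CPM in WT naive cells. Virtual memory cells lay above naive cells in each treatment, and IL-15C above WT in each subset, with a 3.90-fold span between the extremes. Virtual memory over naive gave a log2 ratio of 1.29 with IL-15C (1.17 to 1.41) and of 1.58 in WT mice (1.45 to 1.73), both counted as higher. The IL-15C over WT ratio was 0.38 in virtual memory cells (0.28 to 0.48) and 0.67 in naive cells (0.52 to 0.83), neither beyond 2-fold.

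**Figure D1:**
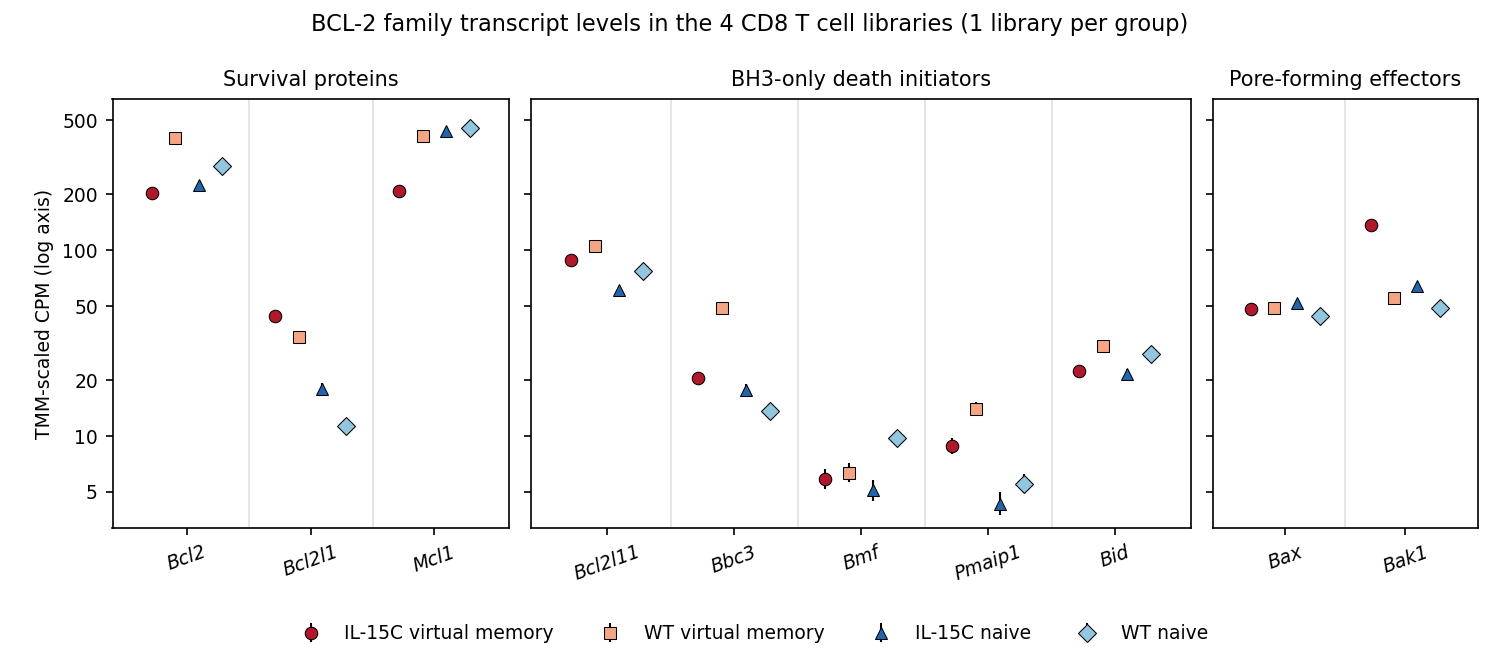
TMM-scaled CPM (log axis) of the 10 members in the IL-15C virtual memory, WT virtual memory, IL-15C naive and WT naive libraries, 1 library each, with exact 95% Poisson intervals as bars (mostly smaller than the symbols). Bbc3 stood apart in WT virtual memory cells at 48.8 CPM, Bak1 in IL-15C virtual memory cells at 136 CPM, and Mcl1 was lowest in IL-15C virtual memory cells at 209 CPM.

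Of the BH3-only genes, Bbc3 and Pmaip1 peaked in WT virtual memory cells, and Bcl2l11, Bid and Bmf varied less. Bbc3 (Entrez 170770, chromosome 7, 16308398 to 16318334), the gene of PUMA, stood at 20.6 CPM in IL-15C virtual memory, 48.8 CPM in WT virtual memory, 17.8 CPM in IL-15C naive and 13.6 CPM in WT naive cells. The WT virtual memory library stood apart, and the other 3 lay close together. Virtual memory over naive was a log2 ratio of 0.21 with IL-15C (0.07 to 0.35) and 1.84 in WT mice (1.72 to 1.97), a value that 3.30% of the genes compared reached or exceeded. IL-15C over WT was −1.24 in virtual memory cells (−1.36 to −1.13), counted as lower, and 0.39 in naive cells (0.24 to 0.54).

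The WT virtual memory library, in which Bbc3 was high, also held the most transcripts of several other cell types, but not of all. Macrophage and granulocyte genes summed to 18.1 CPM in IL-15C and 12.7 CPM in WT virtual memory cells. NK and gamma-delta T cell genes summed to 45.6 CPM and 31.5 CPM. The dendritic cell markers in the table, 6 of 7, summed to 94.2 CPM in IL-15C virtual memory, 233 CPM in WT virtual memory, 9.13 CPM in IL-15C naive and 5.72 CPM in WT naive cells. Of these, 5 were counted as lower in IL-15C than in WT virtual memory cells and Itgax as higher. Itgax was at 55.6 CPM in IL-15C virtual memory cells, most of the sum there, and at 21.5 CPM in WT virtual memory cells. The B cell marker Cd79a stood at 1.12 CPM in the IL-15C virtual memory library, against 15.8 CPM in WT virtual memory cells. It did not exceed 0.177 CPM in the naive libraries. Other B cell genes differed from it. Cd79b was at 11.4, 25.4, 16.6 and 15.9 CPM in IL-15C virtual memory, WT virtual memory, IL-15C naive and WT naive cells. Ighm was nearer level, at 592, 574, 542 and 466 CPM. Bcl2, Bcl2l11, Pmaip1 and Bid were, like Bbc3, highest in the WT virtual memory library. The part of other cell types in the level of any member was not tested.

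Pmaip1, which encodes NOXA, an antagonist of MCL-1, stood at 8.87 CPM in IL-15C virtual memory, 14.0 CPM in WT virtual memory, 4.33 CPM in IL-15C naive and 5.54 CPM in WT naive cells. Both virtual memory libraries lay above both naive ones, and within each subset IL-15C lay below WT. Virtual memory over naive was a log2 ratio of 1.03 with IL-15C, where the interval of 0.78 to 1.29 reached below 2-fold and the gene was not counted, and of 1.33 in WT mice (1.14 to 1.55), where it was. With IL-15C the Pmaip1 ratio over WT was −0.66 in virtual memory cells (−0.85 to −0.48) and −0.35 in naive cells (−0.63 to −0.09).

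Bcl2l11, the gene of BIM (Entrez 12125, chromosome 2, 128126038 to 128162547), stood at 89.0 CPM in IL-15C virtual memory, 105 CPM in WT virtual memory, 61.2 CPM in IL-15C naive and 76.8 CPM in WT naive cells. It followed the order of Pmaip1 over a smaller span of 1.71-fold. Virtual memory over naive was 0.54 with IL-15C (0.47 to 0.61) and 0.45 in WT mice (0.39 to 0.51) on the log2 scale, and IL-15C over WT was −0.24 in virtual memory cells (−0.30 to −0.18) and −0.33 in naive cells (−0.40 to −0.26). Its counting intervals for the 2 subset differences overlapped, as did those for the 2 IL-15C differences.

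Bid, whose product couples death receptors to mitochondria, stood at 22.5, 30.5, 21.6 and 27.6 CPM in IL-15C virtual memory, WT virtual memory, IL-15C naive and WT naive cells. The IL-15C libraries were the lower pair and did not differ from each other beyond counting error (log2 0.06, −0.07 to 0.19). Exons of Bid overlap those of Bcl2l13 on the opposite strand by 628 bases, and although the library kit keeps strand, its use in counting is not stated. Bcl2l13 ran in another order, at 91.9, 71.5, 64.1 and 76.7 CPM in the same libraries.

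Bmf, which senses detachment and cytoskeletal stress, was the member of lowest TPM in 3 libraries. It stood at 5.90, 6.34, 5.13 and 9.75 CPM in IL-15C virtual memory, WT virtual memory, IL-15C naive and WT naive cells, so WT naive cells were highest. The steps between WT virtual memory and IL-15C virtual memory and between IL-15C virtual memory and IL-15C naive cells were within counting error. In naive cells the log2 ratio of IL-15C over WT was −0.92 (−1.16 to −0.70).

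The effector genes diverged: Bax was almost level and Bak1 was high in IL-15C virtual memory cells. Bax stood at 48.1, 49.1, 52.0 and 43.96 CPM in IL-15C virtual memory, WT virtual memory, IL-15C naive and WT naive cells, a span of 1.18-fold. The steps from IL-15C naive to WT virtual memory and from WT virtual memory to IL-15C virtual memory cells were within counting error. Exons of Bax overlap a predicted gene, Gm45808, on the same strand by 201 bases, and that gene was not analysed here.

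Bak1 (Entrez 12018, chromosome 17, 27019812 to 27028627) stood at 136 CPM in IL-15C virtual memory, 55.4 CPM in WT virtual memory, 63.8 CPM in IL-15C naive and 48.5 CPM in WT naive cells. The IL-15C virtual memory library was more than 2-fold above each of the others. IL-15C over WT was a log2 ratio of 1.30 in virtual memory cells (1.23 to 1.37), counted as higher, and 0.39 in naive cells (0.32 to 0.47). Virtual memory over naive was 1.10 with IL-15C (1.03 to 1.16), also counted except with library totals in place of TMM, and 0.19 in WT mice (0.11 to 0.27). Exons of Bak1 overlap Ggnbp1 on the opposite strand by 859 bases. Ggnbp1 had 14 reads in IL-15C virtual memory, 43 in WT virtual memory, 68 in IL-15C naive and 61 in WT naive cells. Bak1 had 5843, 2482, 2900 and 2469 reads in the same libraries. The part of the shared bases in the Bak1 count was not tested.

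The libraries also differed in proliferation. The summed level of 10 cycling cell genes, such as Mki67 and Top2a, was 5919 CPM in IL-15C virtual memory, 601 CPM in WT virtual memory, 2312 CPM in IL-15C naive and 229 CPM in WT naive cells. The 4 libraries stood in the same order for this sum as for Bak1, but the sizes of the differences were unlike. In IL-15C naive against WT naive cells the sum was 2312 against 229 CPM and Bak1 63.8 against 48.5 CPM. The part of cycling cells in any member's level was not tested.

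**Figure D2:**
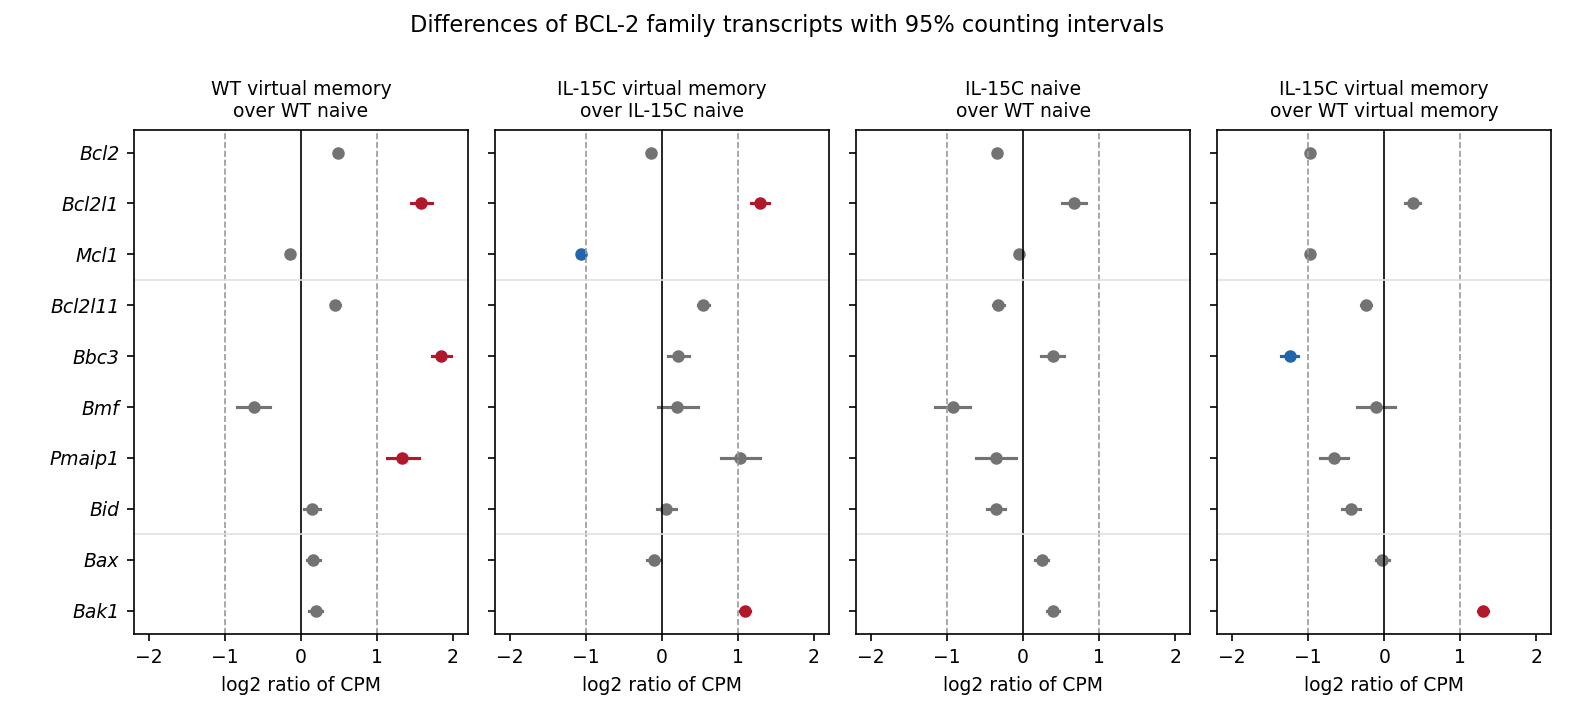
Log2 ratio of CPM for each member (rows) in the 4 comparisons (panels), with 95% counting intervals; dashed lines mark 2-fold, and red or blue marks members counted as higher or lower. Bcl2l1 is beyond 2-fold in both subset comparisons, and no member is in the comparison of IL-15C naive with WT naive cells.

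Read over the family, 3 of 10 members (Bcl2l1, Bbc3, Pmaip1) were counted as higher and 0 as lower in WT virtual memory against WT naive cells. Of the 12259 genes compared there, 4.81% were counted as higher and 1.11% as lower. In the IL-15C mice 2 members were higher in virtual memory than in naive cells (Bcl2l1, Bak1) and 1 lower (Mcl1), beside 6.52% of 12206 genes higher and 5.91% lower. No member was counted in either direction between IL-15C naive and WT naive cells, where 4.95% of 12174 genes were higher and 1.99% lower. Between IL-15C virtual memory and WT virtual memory cells 1 was higher (Bak1) and 1 lower (Bbc3), beside 8.6% of 12370 genes higher and 8.83% lower, so that those shares were close to those of all genes.

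A 1.5-fold limit with the interval beyond it added few members. In WT mice Bcl2l1, Bbc3 and Pmaip1 again lay above the limit in virtual memory cells and 0 below, beside 7.19% of all genes higher and 2.65% lower. In IL-15C mice 3 were higher (Pmaip1 in addition) and 1 lower, beside 13.3% and 13.5%. Between IL-15C naive and WT naive cells 0 were higher and 1, Bmf, lower, beside 11.2% and 8.19%. Between IL-15C and WT virtual memory cells 1 was higher and 3 lower (Bcl2, Mcl1, Bbc3), beside 16.8% and 18.4%. The median log2 ratio over all 10 members was 0.32 for virtual memory over naive in WT mice and 0.21 in IL-15C mice, −0.19 for IL-15C over WT in naive and −0.34 in virtual memory cells, while the median over all genes compared was 0.01, −0.01, 0.02 and −0.04. Each library enters 2 of these comparisons, so the comparisons are not independent.

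The IL-15C difference was also set side by side in the 2 subsets. The log2 ratio of IL-15C over WT in virtual memory cells minus that in naive cells was −1.63 for Bbc3 (95% counting interval −1.82 to −1.45), −0.91 for Mcl1 (−0.96 to −0.87), −0.63 for Bcl2 (−0.69 to −0.58), 0.90 for Bak1 (0.80 to 1.01) and 0.82 for Bmf (0.49 to 1.16). Thus Bbc3, Mcl1 and Bcl2 were lower, and Bak1 and Bmf higher, in the virtual memory response than in the naive one. Smaller differences were seen for Bcl2l1 (−0.29, −0.48 to −0.11) and Bax (−0.27, −0.39 to −0.15). For Bcl2l11 (0.09, −0.00 to 0.18), Pmaip1 (−0.31, −0.63 to 0.01) and Bid (−0.09, −0.25 to 0.08) the interval included 0. No member differed beyond 4-fold, as 0.0634% of 12617 genes did upward and 0.587% downward.

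**Figure D3:**
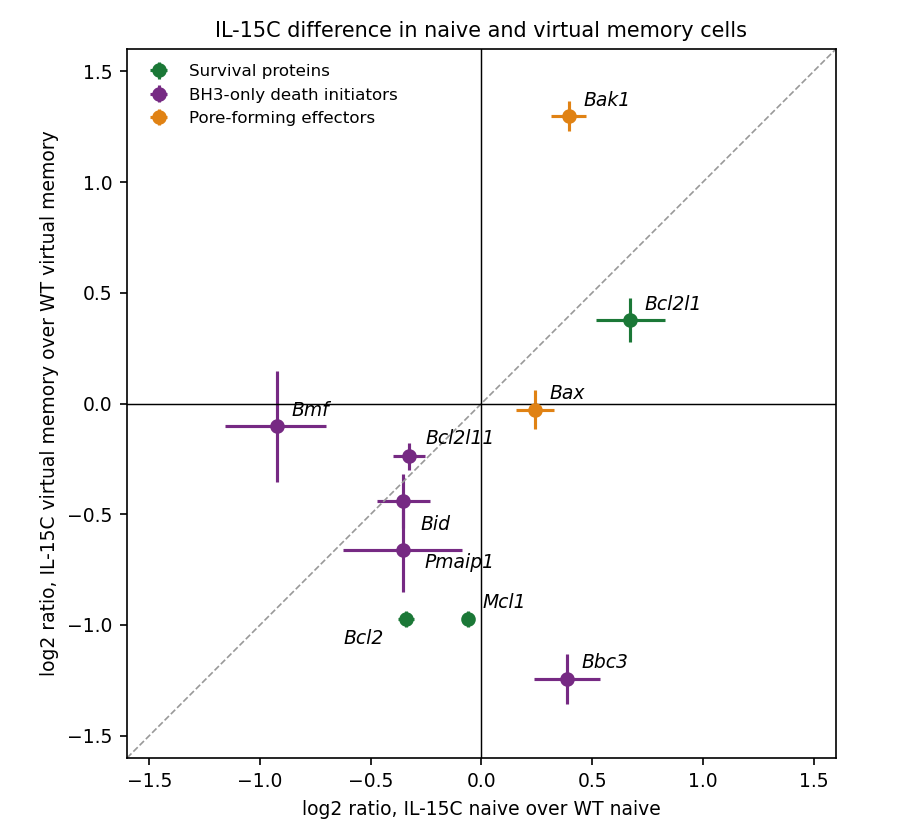
Log2 ratio of IL-15C over WT in virtual memory cells (vertical axis) against that in naive cells (horizontal axis) for the 10 members, coloured by role, with 95% counting intervals; the dashed line marks equal ratios. Bbc3 (−1.24 and 0.39) lies farthest below the line, and Bak1 (1.30 and 0.39) lies above it.

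Levels of different genes were set side by side on the deposited TPM values, which correct for transcript length. The survival genes summed to 181 TPM in IL-15C virtual memory, 362 TPM in WT virtual memory, 279 TPM in IL-15C naive and 350.2 TPM in WT naive cells. For the BH3-only genes the sums were 78.3, 135, 60.9 and 82.5 TPM in the same libraries, and for the effectors 213, 161, 155 and 149 TPM. The ratio of survival to BH3-only transcripts was therefore 2.32 in IL-15C virtual memory, 2.69 in WT virtual memory, 4.58 in IL-15C naive and 4.24 in WT naive cells. It was lower in the virtual memory than in the naive library of each treatment. In IL-15C mice the survival sum was lower and the BH3-only sum higher in virtual memory cells, and in WT mice both sums were higher in virtual memory cells, the BH3-only one by more.

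Within the survival group Mcl1 was the largest share in each library, at 57.0% in IL-15C virtual memory, 62.4% in WT virtual memory, 75.8% in IL-15C naive and 74.3% in WT naive cells. Bcl2l1 made up 14.7%, 6.64%, 4.15% and 2.29%, so that Bcl2 exceeded Bcl2l1 1.91-fold in IL-15C virtual memory cells and 10.2-fold in WT naive cells. Bcl2 stood over Bcl2l11 by 1.64-fold in IL-15C virtual memory, 2.75-fold in WT virtual memory, 2.63-fold in IL-15C naive and 2.67-fold in WT naive cells. The ratio of BCL-2 to BIM transcripts was thus lowest in IL-15C virtual memory cells and nearly level in the other 3 libraries.

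Within the BH3-only group Bbc3 made up 23.9% in IL-15C virtual memory, 37.3% in WT virtual memory, 25.9% in IL-15C naive and 17.6% in WT naive cells. It was the largest BH3-only share in WT virtual memory cells, and Bcl2l11 was in the other libraries, at 40.0% in IL-15C virtual memory, 34.9% in IL-15C naive and 37.2% in WT naive cells. Bax exceeded Bak1 in WT virtual memory (2.04-fold), IL-15C naive (1.88-fold) and WT naive cells (2.09-fold), whereas in IL-15C virtual memory cells the ratio was 0.815 and Bak1 was the highest of the 10 members at 117 TPM.

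**Figure D4:**
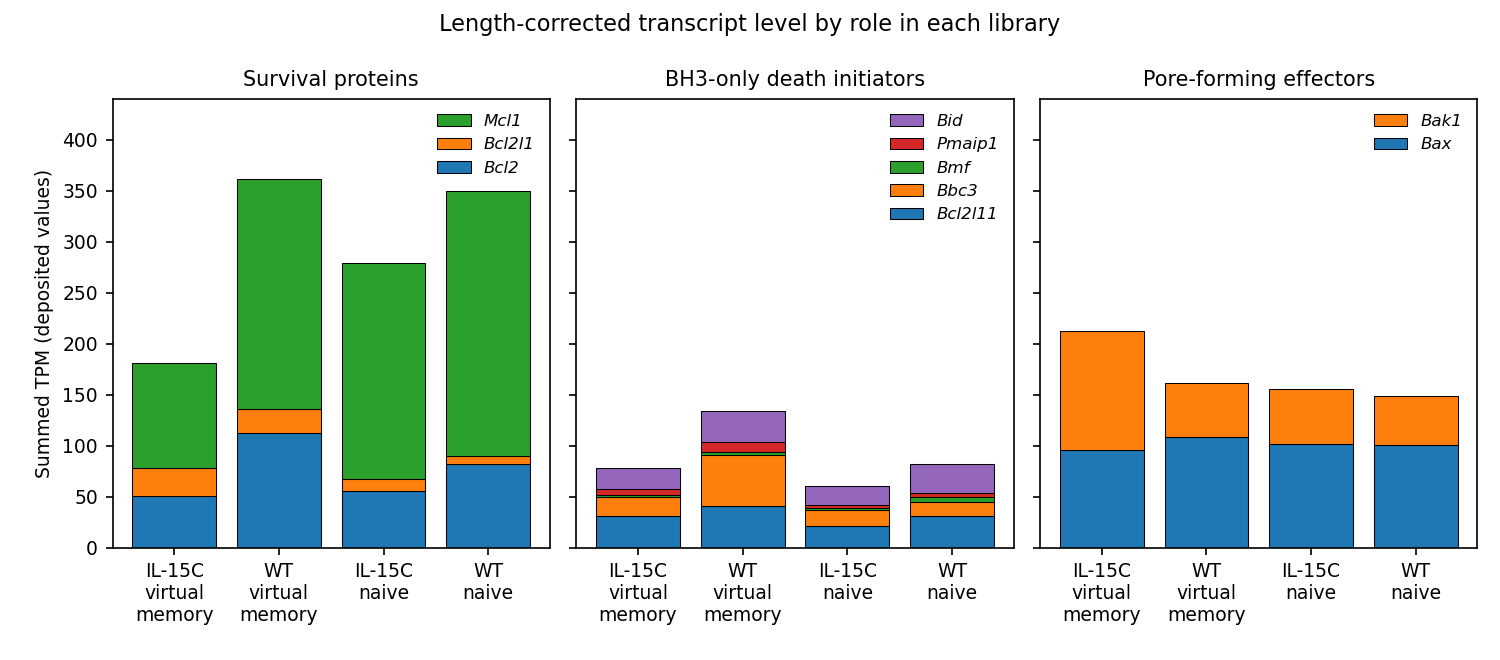
Summed deposited TPM of the survival, BH3-only and effector genes in the IL-15C virtual memory, WT virtual memory, IL-15C naive and WT naive libraries, stacked by gene; bars start at 0 and have no error because there is 1 library per group. Survival transcripts sum to 181 TPM in IL-15C virtual memory and 362 TPM in WT virtual memory cells.

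By distance between log2 CPM profiles centred over the 4 libraries, the closest pairs were Bcl2 with Bid (0.38 log2 units) and Bcl2l11 with Bid (0.42). Bbc3 and Pmaip1 were each nearest to the other (0.69), as were Bcl2l1 and Bak1 (1.05). Bax and Bmf were nearest to Bid (0.52 and 0.56), and Mcl1 to Bcl2 (0.80). These distances rest on 4 points and are a description. They are not scaled for span, so members of small span lie near each other even where their library orders differ, as for Bax and Bid. In the order of libraries by level, neighbouring libraries differed beyond counting error for each member other than Bmf, Bid and Bax.

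The authors' deposited table also compares IL-15C with control over both subsets. There, the authors' deposited table gives Bak1 a signed fold change of 1.93 with a Benjamini-Hochberg adjusted p-value of 0.358, Bbc3 one of −1.63 with 0.728, Bcl2 one of −1.597 with 0.474 and Mcl1 one of −1.34 with 0.790, by a test it does not name. The authors' deposited table gives no member an adjusted p-value below that of Bak1, and its highest is that of Bax at 0.986. Each side of that comparison holds 1 virtual memory and 1 naive library, without a replicate of either. A high p-value there is therefore not evidence that a difference is absent.

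Other BCL-2 relatives were read with the same limit, beside shares of 1.11% to 8.83% of all genes per direction and comparison. The same shares apply to the lists that follow. Of 5 further survival relatives 4 were in the table, and 0 of the 3 or 4 with enough reads were counted in a comparison. With so few genes, 0 is close to those shares. Their median log2 ratio was 1.08 for virtual memory over naive in WT mice and −0.80 for IL-15C over WT in virtual memory cells. The A1 genes Bcl2a1a, Bcl2a1b and Bcl2a1d are near-identical copies whose reads may be divided between them by the counting. Bcl2a1b, the highest, was at 9.38 CPM in IL-15C virtual memory, 15.4 CPM in WT virtual memory, 9.75 CPM in IL-15C naive and 7.00 CPM in WT naive cells. For virtual memory over naive in WT mice, Bcl2a1a, Bcl2a1b and Bcl2a1d had log2 ratios of 1.03, 1.13 and 1.28. Each was above 2-fold with an interval reaching below it. Of 11 other pro-death relatives 9 were in the table. Moap1, a BAX-binding protein gene, was at 2.17, 0.402, 2.29 and 2.48 CPM in those libraries, lower in WT virtual memory than in WT naive cells and higher in IL-15C than in WT virtual memory cells. Bnip3, a mitophagy receptor gene, was lower in IL-15C virtual memory cells than in both IL-15C naive (log2 −2.40) and WT virtual memory cells (−1.62). No other pro-death relative was counted where it had enough reads to be compared (Bcl2l14 had too few in each comparison, Bik in that of the WT subsets), and the list medians lay between −0.15 and 0.32.

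Downstream of BAX and BAK, the 10 apoptosome and effector caspase genes had a median log2 ratio of IL-15C over WT of 0.42 in virtual memory and 0.47 in naive cells. Apaf1, the apoptosome scaffold, was at 94.5 CPM in IL-15C virtual memory and 48.6 CPM in WT virtual memory cells (log2 0.96). Of 6 outer membrane channel genes, Vdac1 (log2 1.46) and Vdac3 (1.20) were higher in IL-15C than in WT virtual memory cells, with a list median of 0.89 (0.72 in naive cells), and 0 were counted in the other 3 comparisons.

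Among 5 inhibitor of apoptosis genes, Naip2 was higher in virtual memory than in naive cells with IL-15C (log2 3.01) and in WT mice (2.08), and Birc6 lower in IL-15C than in WT naive cells (−1.25). The list's median IL-15C over WT ratio was −0.73 in virtual memory and −0.27 in naive cells. In the death receptor arm, with 11 genes, Fasl, the death ligand, was at 21.2 CPM in IL-15C virtual memory, 6.70 CPM in WT virtual memory, 0.330 CPM in IL-15C naive and 0.393 CPM in WT naive cells. Fasl was higher in virtual memory cells of both treatments and with IL-15C in virtual memory cells (log2 1.66), and Tnfrsf1b, a TNF receptor gene, was higher in virtual memory than naive cells of IL-15C mice (1.22). The caspase 8 inhibitor gene Cflar was at 95.9, 145, 102 and 172 CPM in IL-15C virtual memory, WT virtual memory, IL-15C naive and WT naive cells, within 2-fold in each comparison. The medians of this arm lay between −0.05 and 0.29.

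Of 8 genes of MCL-1 and BIM turnover in the table (medians −0.34 to 0.31), Huwe1, which encodes an MCL-1 ubiquitin ligase, was lower in IL-15C than in WT naive cells (log2 −1.21), and Mapk3, the gene of the kinase ERK1, higher in IL-15C than in WT virtual memory cells (1.38). Of 8 FOXO and p53 family regulators (medians −0.47 to −0.14), E2f1 was higher with IL-15C in virtual memory (2.84) and naive cells (4.18) and in WT virtual memory over WT naive cells (1.68). Mdm4, a p53 inhibitor gene, was lower in IL-15C virtual memory than in WT virtual memory (−1.48) and in IL-15C naive cells (−1.06). Foxo3 was at 61.8, 105, 76.3 and 115 CPM and Trp53 at 182, 182, 182 and 171 CPM in IL-15C virtual memory, WT virtual memory, IL-15C naive and WT naive cells. Of 11 other p53 target genes in the table, the 9 or 10 with enough reads for a given comparison held none counted as higher or lower. Over all genes the shares counted were 1.11% to 8.83% per direction and comparison, so with so few genes a lack of counted ones is close to those shares. The median of the p53 targets was −0.58 for IL-15C over WT in virtual memory cells, against −0.04 over all genes compared. It was −0.17 for IL-15C over WT in naive cells. For virtual memory over naive cells it was −0.21 in IL-15C mice and 0.15 in WT mice. Of 12 IL-15 receptor and survival kinase genes (medians 0.09 to 0.27), Il2rb was higher in virtual memory than naive cells of IL-15C (2.47) and WT mice (2.40). Cish, a STAT5-induced feedback gene, was higher in IL-15C virtual memory cells than in IL-15C naive (1.62) and WT virtual memory cells (2.37).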

How the data were processed

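The 4 poly(A) RNA libraries, 1 per group, came from a stranded kit. Among the tools listed in the submitters' processing notes are HISAT2 2.1.0 and StringTie 2.1.3b, with the mm10 build; how strand was counted and which annotation was used are not given in the sources used here. The authors deposited whole-number read counts for each gene and library. Next to these the deposited table has TPM, and FPKM was deposited too and gave the same ratios within a library. The authors' signed fold changes (a score below −1 where the first-named group is lower) and the adjusted p-values beside them were deposited without naming a test. The smallest count is 1, so genes without a read in some library were not analysed here. Columns headed ctrl were read as WT. No use was made of 10 columns of group means.

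Counts were scaled with TMM factors of 0.946 to 1.04 (edgeR 4.0.16, R 4.3.3). Log2 ratios used a prior count of 2, and each 95% interval is the exact binomial (Clopper-Pearson) one for the split of both counts. The interval of the difference between responses is a normal one from 4 counts. Reads are not independent molecules, so intervals cover counting error alone. A gene was compared if the pair of libraries held 20 of its reads and either reached 1 CPM, which held for all members. Single genes of some lists are not reported here. The ratio statistic was tested on simulated Poisson counts, which hold counting error alone. That test cannot show how the statistic behaves with variation between mice or libraries. Exon overlaps came from GENCODE M21, promoters and coordinates from RefSeq GRCm38.p6. The members and the 18 gene lists were chosen with earlier results of these data known. Genes named from a list are those counted as higher or lower (of marker lists, the gene with the highest value in any library). Those named for their role or their contrast (Apaf1, Cflar, Foxo3, Trp53, Bcl2a1b, Bcl2l13, Ggnbp1, Cd3e, Cd3g, Cd79a, Cd79b, Itgax) were chosen after their values were seen. Alternatives were DESeq2 size factors (DESeq2 1.42.0), total counts, TPM, a prior count of 0.5, no filter or a 5 CPM filter, and a 1.5-fold limit.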

Additional observations from a re-analysis of the deposited data

Results flagged for a closer look

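For 3 members the direction of a comparison was opposite in the other pair of libraries, with both counting intervals off 0. With 1 library per group, this difference was not tested. The Bbc3 log2 ratio of IL-15C over WT was −1.24 in virtual memory cells and 0.39 in naive cells. The Bcl2 log2 ratio of virtual memory over naive cells was −0.15 in IL-15C mice and 0.49 in WT mice. For Bax the same ratio was −0.11 in IL-15C mice (−0.20 to −0.02) and 0.16 in WT mice, both far within 2-fold. With DESeq2 size factors the Bax ratio in IL-15C mice was −0.06. That shift of 0.05 exceeds the distance of the interval from 0, so the Bax entry depends on the scaling.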

How the results depend on the processing

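The sign of a member's log2 ratio was kept in all 40 ratios with a prior count of 0.5, with no filter, with a 5 CPM filter and with TPM. It changed for Bid with total counts (−0.02 in place of 0.06, virtual memory over naive with IL-15C) and for Bax with DESeq2 size factors (0.02 in place of −0.03, IL-15C over WT virtual memory), neither of them beyond 2-fold. DESeq2 size factors moved the ratios by −0.04 to 0.05 and total counts by −0.11 to −0.02. TPM moved the median of all genes compared by −0.23 (IL-15C over WT, naive) and −0.14 (virtual memory), and total counts moved it by −0.11 in virtual memory cells. The counts of members changed as follows. With DESeq2 size factors 0 members were lower in virtual memory than naive cells of IL-15C mice (Mcl1 lost), and with total counts 1 was higher there (Bak1 lost). With TPM, read by fold alone, and with a 1.5-fold limit 3 were higher there (Pmaip1 added). With total counts, with TPM and with a 1.5-fold limit 3 were lower in IL-15C than WT virtual memory cells. Relative to the shifted median of all genes, the TPM ratios of Bcl2 and Mcl1 in that comparison were −0.95 and −0.94. In naive cells 1 member, Bmf, was lower with IL-15C by TPM and with a 1.5-fold limit. No paired analysis was possible because each group has 1 library, and no library could be left out for the same reason. Depth limited the calls on the members with fewest reads, Pmaip1 and Bmf, and differences between mice were not measured.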

Other observations

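Morrbid, a long noncoding RNA gene known in mice as a repressor of Bcl2l11 in myeloid and CD8 T cells, was looked up after its values were seen. It had 351 reads (8.19 CPM) in IL-15C virtual memory, 47 reads (1.05 CPM) in WT virtual memory, 38 reads (0.836 CPM) in IL-15C naive and 4 reads (0.0786 CPM) in WT naive cells. The Morrbid level was thus highest in IL-15C virtual memory and lowest in WT naive cells. Bcl2l11 stood at 89.0, 105, 61.2 and 76.8 CPM in the same libraries, with IL-15C below WT in each subset and virtual memory above naive cells in each treatment.

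The remaining marker lists add to the account of the libraries. The summed level of 6 CD8 T cell markers was 3760.4, 3800.5, 4978 and 4129 CPM in IL-15C virtual memory, WT virtual memory, IL-15C naive and WT naive cells. The 5 B cell genes in the table summed to 609, 644, 562 and 487 CPM, of which Ighm gave 592, 574, 542 and 466 CPM. Macrophage and granulocyte genes (4 in the table) summed to 18.1, 12.7, 3.39 and 5.19 CPM, CD4 and regulatory T cell genes (3) to 5.74, 20.7, 4.202 and 2.56 CPM, NK and gamma-delta T cell genes (7) to 45.6, 31.5, 14.1 and 7.14 CPM, and erythroid genes (3) to 1.28, 5.47, 0.924 and 1.003 CPM. By the highest value in any single library, the leading gene of each remaining list was Cd8a, Cd68, Zbtb7b, Klrb1c and Hbb-bs, and that of the dendritic and cycling lists Cd74 and Mki67; which gene led differed between libraries in all 7 of these lists. Markers such as Ms4a1, Pax5, Adgre1, Cd4, Ncr1 and Pf4 were not analysed here.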
